A study of Homo sapiens with 6 samples.

Results

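TLR4, IRAK1 and IL1B stand at the start, in the middle and at the end of the pathway by which cells sense lipopolysaccharide (LPS), a component of the outer membrane of Gram-negative bacteria. The 3 genes were found by their symbols in the gene table of the study, which lists 7758 genes, and each symbol matched 1 row. The study asked what the loss of METTL3, the catalytic subunit of the enzyme that writes N6-methyladenosine (m6A) into mRNA, does to inflamed retinal pigment epithelium (RPE). RNA was sequenced from ARPE-19 cells, an established human RPE line, in a pair of groups of 3 libraries each. The cells of the control group (sh-Control, genotype Scramble) carried a control hairpin, and those of the other group (sh-METTL3, genotype METTL3 knockdown) carried a short hairpin RNA against METTL3. Both groups had been given LPS at 1 µg/ml for 24 h, so no library analysed here came from cells without LPS and the response to LPS itself was not measured here. The hairpin was delivered by lentivirus, and per the methods of the study stably infected strains were selected with puromycin or neomycin. The labels leave unsaid whether replicate libraries were made from independent infections or from 1 strain. The p-values therefore measure the spread between these libraries, which may be technical.

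LPS is handed by CD14 to a complex of LY96 (MD-2) and the receptor TLR4. The receptor recruits the adaptor MYD88, which gathers the kinases IRAK4, IRAK1 and IRAK2, and the signal then runs through TRAF6 and MAP3K7 (TAK1) to NF-kB. IL1B encodes the precursor of interleukin-1β, a cytokine that is transcribed under NF-kB, cut to its active form by caspase-1, and read by a receptor that again uses MYD88 and the IRAK kinases. RPE cells form the outer blood-retina barrier and are known to carry TLR4 and to release cytokines when it is engaged.

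The start regions of the 3 genes are shown for the motifs they hold. A link between these motifs and the directions of change was not tested. Each is the RefSeq promoter window on GRCh38.p14, from 250 bases before to 50 bases after the RefSeq start site, written 5′ to 3′ on the strand of the gene. The windows are chr9:117704153-117704452 on the plus strand for TLR4, chrX:154019853-154020152 on the minus strand for IRAK1 and chr2:112836730-112837029 on the minus strand for IL1B. In all 3 genes the RefSeq start lies inside the Ensembl gene, whose first base is farther upstream. Capitals mark motifs found on either strand.
TLR4: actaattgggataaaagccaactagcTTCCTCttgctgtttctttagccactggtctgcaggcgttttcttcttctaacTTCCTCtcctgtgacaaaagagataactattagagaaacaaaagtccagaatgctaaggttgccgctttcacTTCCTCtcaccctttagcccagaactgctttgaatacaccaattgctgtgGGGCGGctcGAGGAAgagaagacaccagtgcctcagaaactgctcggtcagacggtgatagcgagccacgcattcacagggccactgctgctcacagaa
IRAK1: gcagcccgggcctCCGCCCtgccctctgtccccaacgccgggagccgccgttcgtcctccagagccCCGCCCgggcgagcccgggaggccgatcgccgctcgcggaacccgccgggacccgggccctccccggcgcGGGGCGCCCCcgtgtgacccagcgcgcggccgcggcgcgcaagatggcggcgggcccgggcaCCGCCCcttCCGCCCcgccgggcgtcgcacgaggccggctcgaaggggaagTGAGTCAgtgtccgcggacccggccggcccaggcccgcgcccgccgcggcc
IL1B: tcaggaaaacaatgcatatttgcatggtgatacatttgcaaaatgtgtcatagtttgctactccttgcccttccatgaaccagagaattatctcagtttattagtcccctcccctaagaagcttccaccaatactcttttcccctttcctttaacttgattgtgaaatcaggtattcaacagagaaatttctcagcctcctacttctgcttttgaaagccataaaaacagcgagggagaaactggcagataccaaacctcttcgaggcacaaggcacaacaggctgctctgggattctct
The motifs searched were AP-1 (TGANTCA), PU.1 (GAGGAA), the GC box (GGGCGG), the TATA box (TATAAA) and the NF-kB motif of 10 bases, and no matches overlapped each other.

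The TLR4 window held 4 PU.1 motifs, which began 224, 171, 99 and 40 bases before the start site, and 1 GC box that began 49 bases before it. Of 35116 RefSeq promoter windows of the same length, 27.9% held a PU.1 motif and 0.0911% held 4 or more. The TLR4 window had 48.3% G and C and 8 CpG dinucleotides. The IRAK1 window had 83.0% G and C, 52 CpG dinucleotides and 4 GC boxes, a number of GC boxes that 9.06% of windows reached. It also held 1 NF-kB motif, found in 11.3% of windows, and 1 AP-1 motif that runs across the start site, found in 7.71%. The IL1B window had 42.3% G and C and 2 CpG dinucleotides and held none of the 5 motifs. Over all windows the medians were 58.7% and 14, so TLR4 and IL1B lay below both and IRAK1 above both. A TATA box was in 11.5% of windows and a GC box in 45.0%. These are matches of letters and not measured binding sites.

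The values are read counts divided by 1 size factor per library, called scaled counts here. A library held between 10898434 and 17750052 reads on the listed genes, and replicates of a group differed from each other by more than sampling noise in every pair. The authors deposited only genes that had passed an adjusted p of 0.05 in their own test on the same libraries. Counts of genes that pass a test, and shares of higher and lower genes, therefore describe a selected list. METTL3 itself, the targeted gene, had means of 1118 ± 32.8 with the control hairpin and 911 ± 128 with its own (SD, n = 3 each), which is 18.5% lower, with a log2 fold change of -0.30 and an adjusted p of 0.032 by limma. It did not pass in 6 of 17 alternative fits, and over the 17 its adjusted p ranged from 0.0108 to 0.261. Its log2 fold change was -0.18 without sh-METTL3 replicate 3 and -0.17 with RLE factors in edgeR.

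TLR4 fell by 79.3% in the METTL3-silenced cells. TLR4 (ENSG00000136869) spans 117704175 to 117724730 on the plus strand of chromosome 9 (GRCh38). Its scaled counts were 555, 562 and 585 under sh-Control, against 125, 126 and 102 under sh-METTL3. All 3 sh-METTL3 libraries were far below all 3 control libraries, with replicate 3 the lowest, as the plot of scaled counts per library shows. The means were 567 ± 15.7 and 118 ± 13.7 (SD, n = 3 each), or 4.82-fold lower. The log2 fold change was -2.27 (95% interval -2.52 to -2.01), with an adjusted p of 4.2e-07 by limma. Among all listed genes 335 (4.32%) had a lower log2 fold change. Behind these values stood 696, 585 and 626 reads in the control libraries and 134, 98 and 91 in the sh-METTL3 libraries. The coefficient of variation of TLR4 was 2.76% among the control libraries and 11.7% among the sh-METTL3 libraries, against 3.97% and 9.64% from counting of reads alone.

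IL1B, the cytokine gene, fell by 76.5%. IL1B (ENSG00000125538) spans 112829751 to 112836903 on the minus strand of chromosome 2. Its scaled counts were 803, 887 and 758 in the control libraries and 229, 227 and 120 in the sh-METTL3 libraries. The groups did not overlap, and sh-METTL3 replicate 3 was lower than the other two, which were nearly equal. The means were 816 ± 65.3 and 192 ± 62.3 (SD, n = 3 each), or 4.26-fold lower, beside 4.82-fold for TLR4. The log2 fold change was -2.14 (95% interval -2.62 to -1.66), at an adjusted p of 3.29e-05 by limma, and 372 listed genes (4.80%) had a lower one. It was -1.83 when sh-METTL3 replicate 3 was left out. Its coefficient of variation among the sh-METTL3 libraries, 32.5%, was above the 7.54% that counting of 245, 176 and 107 reads gives, and above the median of 8.18% over all listed genes.

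IRAK1, the kinase gene, went the other way and rose by 49.4%. IRAK1 (ENSG00000184216) spans 154010500 to 154019980 on the minus strand of the X chromosome. Scaled counts of 4992, 5043 and 4385 were found under sh-Control, against 7328, 7309 and 6907 under sh-METTL3. Replicate 3 was the lowest library in both groups, and the lowest sh-METTL3 library was still well above the highest control library. The means were 4807 ± 366 and 7181 ± 238 (SD, n = 3 each), a ratio of 1.49. The log2 fold change was 0.58 (95% interval 0.44 to 0.72), at an adjusted p of 6.04e-05 by limma, and 2204 listed genes (28.4%) had a higher one. Its coefficient of variation was 7.62% among the control libraries and 3.32% among the sh-METTL3 libraries, and with 4691 to 7855 reads per library counting gives 1.36% and 1.23%.

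**Figure D1:**
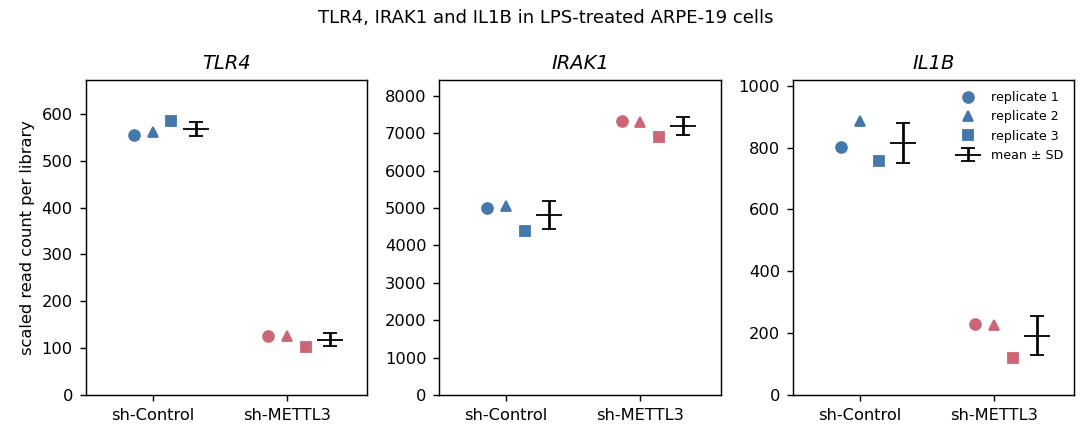
Scaled read counts of TLR4, IRAK1 and IL1B in each library (symbols, 3 per group), with the mean and SD of each group; every vertical axis starts at 0. TLR4 went from a mean of 567 to 118 and IL1B from 816 to 192, IRAK1 from 4807 to 7181, and in none of the panels do the groups overlap.

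All 3 genes passed the test, as did 97.9% of listed genes. TLR4 and IL1B were lower, as were 51.3% of listed genes, and IRAK1 was higher, as were 46.6%. Groups without overlap, as found for all 3, were the case for 98.5% of listed genes. Passing the test or not overlapping thus sets none of the 3 apart from the list. TLR4 and IRAK1 were also among the genes that the study picked for qPCR partly from these libraries, so their directions are not independent evidence. In bulk RNA, fewer cells with a transcript and less of it in each cell cannot be told apart.

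The size of each change varied little with the fit. Over 17 alternatives in scaling, test, filter and libraries, the log2 fold change ran from -2.32 to -2.15 for TLR4, from -2.30 to -1.83 for IL1B and from 0.52 to 0.70 for IRAK1. The highest adjusted p in any of them was 0.000143 for TLR4, 0.00285 for IL1B and 0.00334 for IRAK1. The plot of fold changes by fit shows that for all 3 genes each of these values stayed within the 95% interval of the fit as reported.

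**Figure D2:**
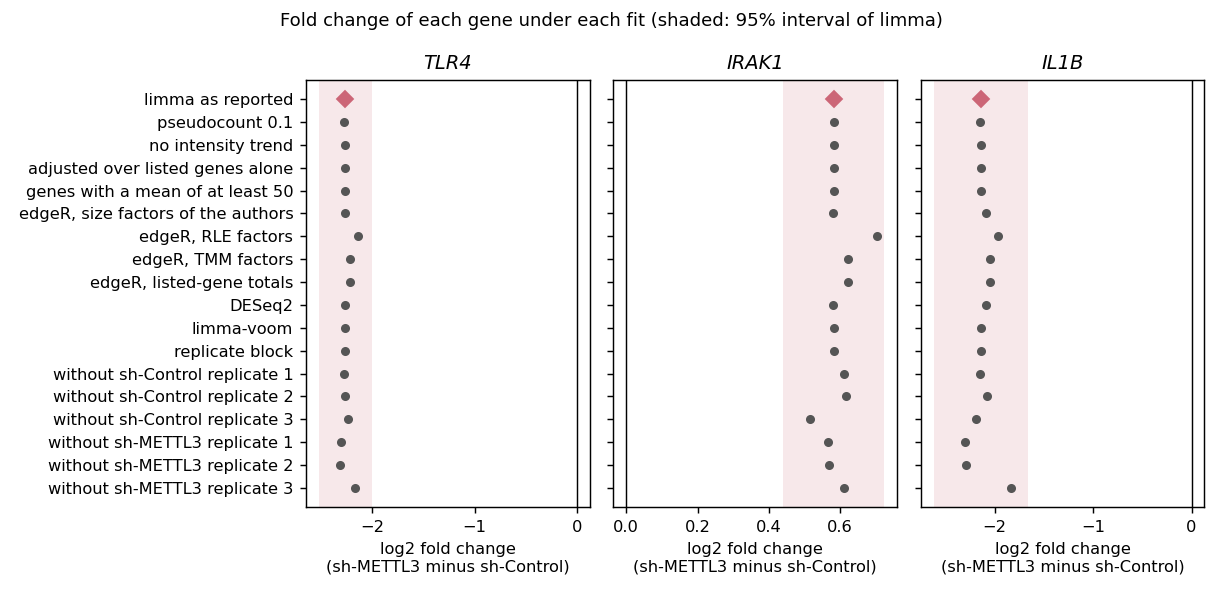
Log2 fold change (sh-METTL3 minus sh-Control) of the 3 genes in limma as reported (diamonds) and in 17 alternative fits (points), with the 95% interval of limma shaded and a line at 0. The points of TLR4 lie between -2.32 and -2.15, those of IRAK1 between 0.52 and 0.70 and those of IL1B between -2.30 and -1.83.

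Levels were compared between the genes per kilobase of exon. In the control cells IRAK1 had 1201 ± 91.5 scaled counts per kilobase, IL1B 264 ± 21.1 and TLR4 42.8 ± 1.18 (SD, n = 3 each). In the METTL3-silenced cells the levels per kilobase were 1795 ± 59.5, 61.9 ± 20.1 and 8.87 ± 1.03 in the same order. The order of the 3 levels was thus the same in both groups, and neighbours in it were separated by more than their spread. By this level IRAK1 lay above 94.8% of listed genes in the control cells and above 96.7% in the METTL3-silenced cells. IL1B went from above 72.3% of them to above 37.1%, and TLR4 from above 30.9% to above 11.5%.

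The exon length of TLR4, 13272 bases, sums all annotated transcripts, and its level per kilobase depends on which is used. The mean control count came to 104 per kilobase over TLR4-201, a transcript of 5432 bases, and to 44.2 over TLR4-205, of 12853 bases, although both encode the same length of protein. For IL1B the count per kilobase was 500 over its transcript of 1631 bases. With either TLR4 transcript the order of the 3 genes in the control cells was the same.

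Ratios within a library do not depend on how libraries were scaled. The ratio of the IRAK1 to the TLR4 count was 8.99, 8.97 and 7.49 in the control libraries and 58.6, 57.9 and 67.8 in the sh-METTL3 libraries. The sh-METTL3 libraries were all several times above the controls, and the difference in the log2 ratio was 2.85. The ratio of IL1B to TLR4 was 1.45, 1.58 and 1.30 in the control libraries and 1.83, 1.80 and 1.18 in the sh-METTL3 libraries. Here the groups overlapped, since sh-METTL3 replicate 3 lay below every control library and the other two lay above, and the difference in the log2 ratio was 0.12 with a two-sided exact permutation p of 0.6. Without sh-METTL3 replicate 3 that difference was 0.33, and the groups no longer overlapped. The exact permutation p was then 0.2, the smallest that 2 libraries against 3 allow. The ratio of IRAK1 to IL1B was 6.21, 5.69 and 5.78 against 32.1, 32.2 and 57.6. It was highest in sh-METTL3 replicate 3, and the difference in the log2 ratio was 2.72. For both ratios with IRAK1 the exact permutation p was 0.1, the smallest that 3 libraries against 3 allow, so no ratio could pass 0.05.

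**Figure D3:**
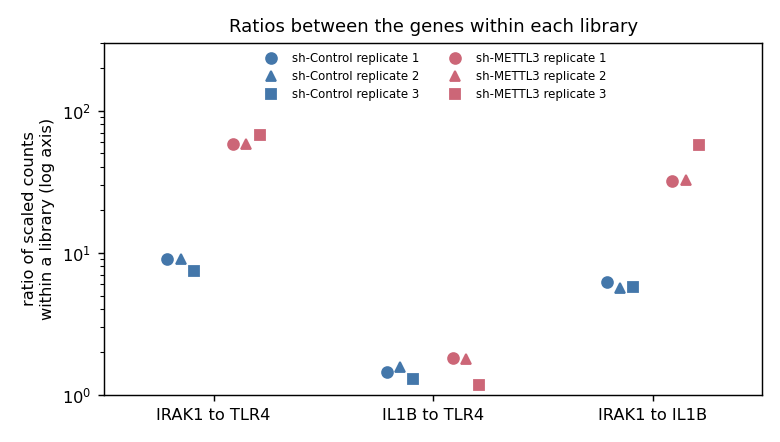
Ratios of the scaled counts of 2 genes within each library, on a log axis, with 1 symbol per library. The ratios of IRAK1 to TLR4 lie between 7.49 and 8.99 in the control libraries and between 57.9 and 67.8 in the sh-METTL3 libraries, and those of IL1B to TLR4 overlap between the groups.

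The genes around them in the pathway were taken from a list of 128 genes in 8 roles, which does not count the 3 genes themselves. Of these 70 were in the table and 58 were not, and the unlisted ones, among them MYD88, LY96, TRAF6, IRAK3, TNF and NLRP3, were not analysed here. By limma 60 of the 70 were lower in the METTL3-silenced cells, 8 were higher and 2 did not pass. The median log2 fold change of the 70 was -0.77, against -0.21 over all listed genes, and 85.7% were called lower, against 51.3% of all. TLR4 and IL1B thus shared their direction with most listed genes of the pathway, and IRAK1 shared its direction with few. Both medians move by about 0.12 with another scaling (RLE size factors), and no listed gene of the pathway changed sign in any alternative that fitted it. With TLR4, IRAK1 and IL1B the listed genes number 73, of which 65 were fitted in all 17 alternatives and 51 were called in all of them. The other 8, scarce genes such as CD14, IL1A, TLR5 and MAP2K6, were not fitted where a mean of at least 50 was required.

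Among receptors and co-receptors 5 of 6 listed genes were lower, and their median log2 fold change was -1.41. TLR2, the receptor for bacterial lipoproteins, went from a mean of 107 ± 11.8 to 22.5 ± 6.76 (SD, n = 3 each), and its log2 fold change of -2.25 lay close to that of TLR4. TLR3, which binds double-stranded RNA, went from 280 ± 22.0 to 80.7 ± 17.5 (log2 fold change -1.80). TLR1, a partner of TLR2, had a log2 fold change of -1.02, and RFTN1 one of -0.41. CD14, which hands LPS to the TLR4 complex, was scarce, with scaled counts of 24.7, 25.9 and 25.2 in the control libraries and 2.80, 0 and 1.12 in the sh-METTL3 libraries. It was nearly undetected in all 3 sh-METTL3 libraries, and its fitted fold change rests on a few reads. TLR5, the receptor for flagellin, was the exception and rose from 29.7 ± 5.84 to 60.7 ± 22.2 (log2 fold change 0.97). Its call was lost in 3 alternatives and that of RFTN1 in 2.

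Among adaptors, kinases and ligases 15 of 17 listed genes were lower, and the median of their log2 fold changes was -0.41. The kinases that act beside IRAK1 moved against it. IRAK4, which phosphorylates IRAK1, had scaled counts of 613, 663 and 731 under sh-Control and of 426, 418 and 456 under sh-METTL3 (log2 fold change -0.62, adjusted p 0.000328 by limma). IRAK2, which takes part in the same complex, went from 1745 ± 145 to 966 ± 53.8 (log2 fold change -0.85, adjusted p 1.41e-05 by limma). For each of them the 3 sh-METTL3 libraries lay below all controls. TIRAP, which bridges MYD88 to TLR4, and TICAM1, the adaptor of the other branch of TLR4 signalling, had log2 fold changes of -0.53 and -0.33. TAB2, a partner of MAP3K7, had -0.26. Of the 15 lower calls in this role 8 were lost in at least 1 alternative, that of TAB1 in 8, RIPK1 in 6, TIRAP, IKBKB and IKBKG in 4 each, MAP2K3 and UBE2N in 2 each and TAB2 in 1. Besides IRAK1 only MAP3K7, the kinase below it, and MAP2K6 were higher in this role. MAP3K7 went from 1359 ± 20.8 to 1729 ± 80.5 (log2 fold change 0.35, adjusted p 0.000851 by limma), and MAP2K6 had at most 24.6 scaled counts in any library and lost its call in 3 alternatives.

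Of the NF-kB subunits and interferon regulatory factors 6 of 7 listed genes were lower, and the median was -0.79 on the log2 scale. NFKB1 went from 1877 ± 84.7 to 942 ± 109, and the log2 fold change was -0.82 for RELB, -0.79 for NFKB2 and -0.77 for RELA. IRF7 had -1.20, and IRF3, which acts below TICAM1, had -0.33. IRF5, a factor that drives inflammatory cytokine genes, rose instead, from 44.5 ± 10.8 to 263 ± 42.5, with a log2 fold change of 2.55.

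Genes grouped here as inhibitors of the pathway were lower as well. The grouping is broad, and PELI2 and NFKBIZ in it are not inhibitors alone. Of 10 listed genes in this group 8 passed, all lower, and the median over the 10 was -0.55 on the log2 scale. The call of DUSP1, 1 of the 8, was lost in 8 of 17 alternatives. SIGIRR, a receptor that dampens TLR and IL-1 signalling, had -1.45, and PELI2, a ligase that binds IRAK proteins, had -1.57. TNFAIP3 (A20) had -0.73, and NFKBIA, which holds NF-kB in the cytoplasm, had -0.31. The 2 that did not pass were TNIP1 (log2 fold change -0.18, adjusted p 0.071 by limma) and NFKBIB (-0.39, adjusted p 0.0583 by limma).

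The ligands of the IL-1 family did not move together. IL1A, the neighbour and relative of IL1B, was scarce, with scaled counts of 20.7, 19.2 and 16.8 in the control libraries and 4.66, 3.87 and 0 in the sh-METTL3 libraries, and it was called lower. IL18 rose from 2141 ± 41.3 to 3566 ± 551 (log2 fold change 0.72), and IL33 rose from 347 ± 30.7 to 458 ± 32.9 (log2 fold change 0.40). IL1B was thus 1 of 2 listed ligands that fell, beside 2 that rose. All 4 listed receptors of the family fell, with a median log2 fold change of -1.84. Of these, IL18R1 (-3.87) and IL1RAPL1 (-2.13) were scarce, with control means of 18.5 and 24.8 scaled counts. IL1R1, the signalling receptor of interleukin-1, went from 394 ± 16.3 to 134 ± 3.15 (log2 fold change -1.54), and its partner IL1RAP went from 760 ± 91.6 to 311 ± 10.6 (log2 fold change -1.28).

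Of the genes grouped under the inflammasome and release of interleukin-1, 6 of 7 listed ones were lower, at a median of -0.74 on the log2 scale. The group also holds IL18BP (log2 fold change -0.93), which encodes a binding protein of interleukin-18. CASP1, the protease that cuts the IL1B precursor, went from 637 ± 36.8 to 131 ± 17.5 (log2 fold change -2.28, adjusted p 5.34e-07 by limma). NEK7, which binds NLRP3, had -0.74, and GSDMD, the pore-forming protein of the inflammasome, had -0.35. CASP4, the caspase that binds LPS inside the cell, rose from 398 to 567 (log2 fold change 0.51, adjusted p 0.00163 by limma). Thus the listed receptor of LPS at the cell surface fell while the listed sensor in the cytosol rose.

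Of 16 listed genes known to respond to LPS or interleukin-1, 15 were lower, at a median of -1.32 on the log2 scale. IL6 went from 601 to 270 (log2 fold change -1.18). The chemokine gene CXCL8 had a log2 fold change of -2.20, close to that of IL1B, and CCL2 had -1.59. TNFAIP2, CSF2 and BIRC3 had -3.20, -2.93 and -2.03. SOD2, the mitochondrial superoxide dismutase, was the exception, with a log2 fold change of 0.23 that lay near the threshold (adjusted p 0.0482 by limma). Its call was lost in 8 of 17 alternatives. For the proteins of IL6, CXCL8 and IL1B the study reports the opposite direction. Its ELISA found more of them released by ARPE-19 cells after METTL3 silencing, above all under LPS. RNA counts do not measure protein or its release, and the reason for this difference was not tested.

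**Figure D4:**
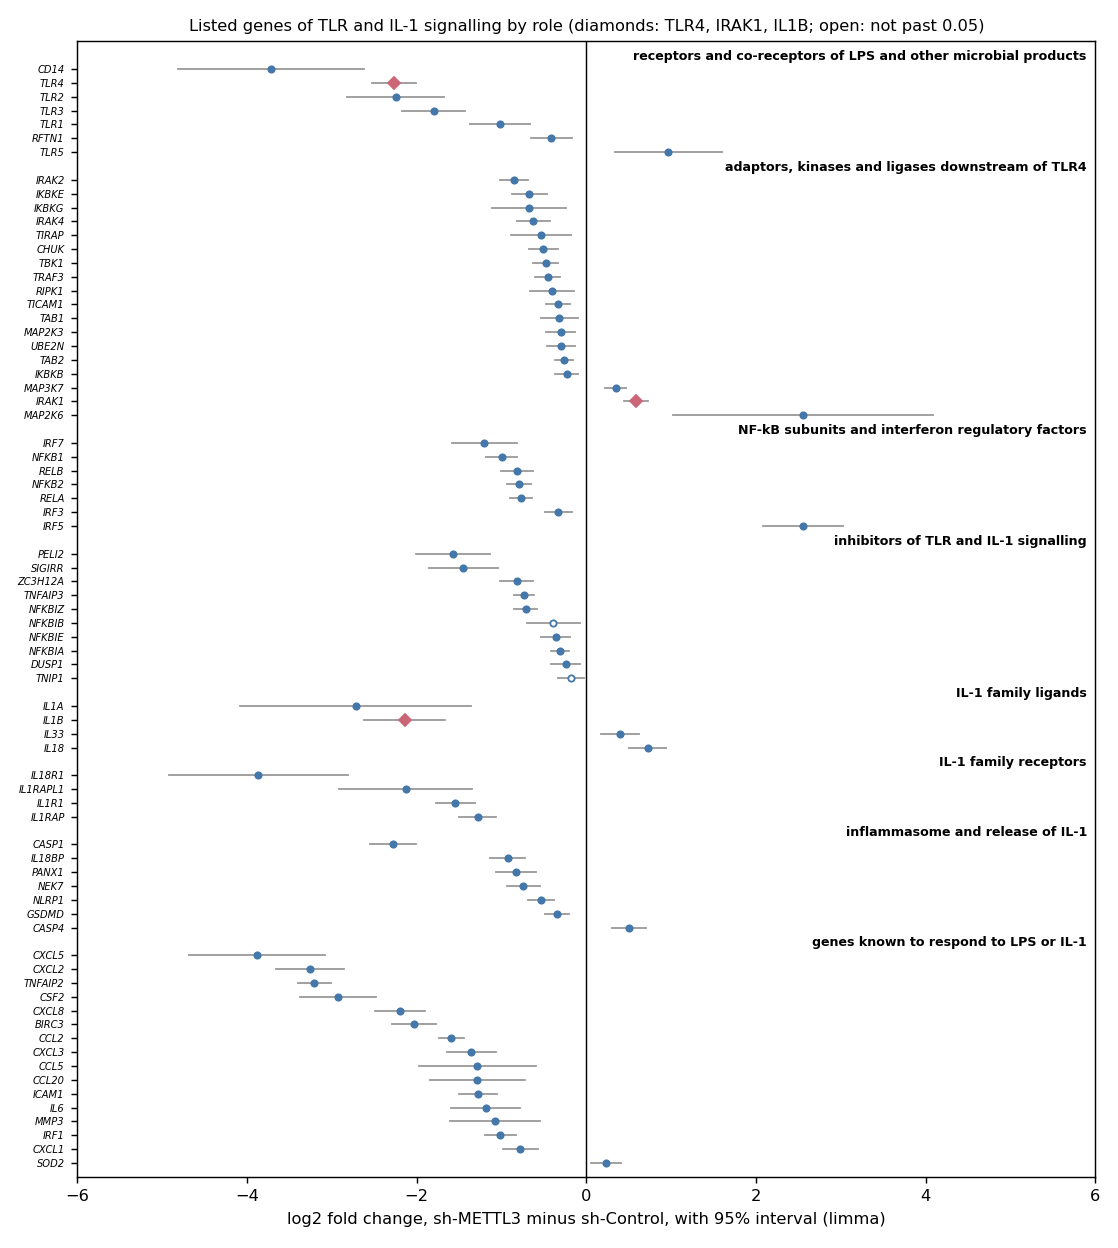
Log2 fold change (sh-METTL3 minus sh-Control) with its 95% interval by limma for the 73 listed genes of TLR and IL-1 signalling, grouped by role, with TLR4, IRAK1 and IL1B as diamonds. TLR4 (-2.27) and IL1B (-2.14) lie among the lower genes that make up most of each role but the ligands, and IRAK1 (0.58) is 1 of 3 points right of 0 among adaptors and kinases; open points did not pass 0.05.

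Genomic position was compared because listed genes of some chromosomes leaned one way in these libraries. On chromosome 9, which holds TLR4, 43.9% of listed genes had a negative log2 fold change, whether or not they passed the test. On chromosome 2, with IL1B, the share was 51.2%, and on the X chromosome, with IRAK1, 40.2%. On chromosome 11, where 76.6% of listed genes had a negative one, lie 11 of the pathway genes, 9 of them with a negative one, CASP1 included. Without chromosomes 11 and 15, 51 of 59 listed pathway genes were called lower and 6 called higher, at a median log2 fold change of -0.73. Of all 6865 listed genes outside these chromosomes 3331 (48.5%) were called lower and 3389 called higher, at a median of 0.18. None of the 3 genes lies on these chromosomes. No listed pathway gene lies on chromosome 15, so leaving it out changed only the values over all listed genes. The share of lower genes on chromosome 15 is not shown here.

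Within 500 kb of each gene the picture differed. None of the 2 annotated protein-coding genes near TLR4 was listed. Near IRAK1 21 genes were listed, of which 17 were higher (81.0%), at a median log2 fold change of 0.54, close to the 0.58 of IRAK1. Among them were FLNA, an actin-binding protein, at 0.64 and ARHGAP4 at 2.14. The 4 lower ones were L1CAM (-1.15), AC245140.2 (-0.95), UBL4A (-0.46) and RPL10 (-0.26). Near IL1B all 9 listed genes were lower, with a median of -0.55 against the -2.14 of IL1B itself. They ran from TTL (-0.29) and PSD4 (-0.33) to FLJ42351 (-1.05) and IL1A (-2.72), and the fitted fold of IL1A rests on few reads. Whether the position of IRAK1 or IL1B had a part in their change was not tested.

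**Figure D5:**
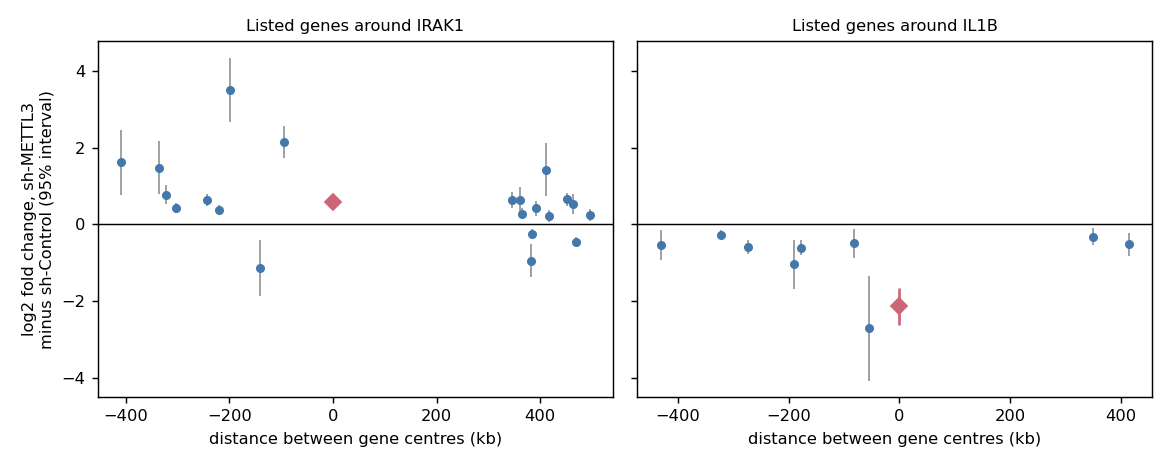
Log2 fold change with its 95% interval by limma of the listed genes within 500 kb of IRAK1 (left) and IL1B (right), by distance in kilobases between gene centres. Around IRAK1 (diamond, 0.58) 17 of 21 listed genes lie above 0, and around IL1B (diamond, -2.14) all 9 lie below 0.

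Overlapping annotation limits the counts of TLR4 and IRAK1. TLR4 overlaps AL160272.2, a protein-coding gene model on the same strand that spans 117704157 to 117877478, and the small RNA gene RNU6-1082P on the other strand. IRAK1 overlaps the microRNA gene MIR718 (154019920 to 154019989) on the same strand. None of these is listed, and whether reads in shared sequence were given to 1 gene or dropped is not given in the sources used here.

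The genes with the pattern most like each of the 3 were found over the 6 libraries among 6061 other listed protein-coding genes, by the root mean square difference of centred log2 values. This likeness is mostly that of the difference between the groups. For TLR4 they were CASP1 (0.036), MAPK13 (0.037), DOCK10 (0.097), ADGRE5 (0.121) and SERPINB9 (0.125). CASP1, which cuts the IL1B precursor, thus had the pattern nearest to that of TLR4. For IL1B they were PDGFB (0.098), SGK1 (0.105), IL32 (0.124), SNAI1 (0.125) and TRHDE (0.152), and TLR4 came 14th for IL1B, while IL1B came 50th for TLR4, both at 0.231. For IRAK1 they were KHDC4 (0.031), SLC25A6 (0.034), RGL3 (0.035), UBAP1 (0.040) and NEU1 (0.043).

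The study measured TLR4 and IRAK1 by qPCR, and the primers are shown to place what they read. All 4 match a single gene in the GENCODE transcripts and lie in its coding sequence.
TLR4 forward: agacctgtccctgaaccctat
TLR4 reverse: cgatggacttctaaaccagcca
IRAK1 forward: gcacccacaacttctcggag
IRAK1 reverse: caccgtgttcctcatcaccg
The TLR4 primers lie in exon 3 of TLR4-201, at chr9:117712752-117712772 and chr9:117712877-117712898 on GRCh38, and span 147 bases. The IRAK1 primers lie in exon 5 of IRAK1-203, at chrX:154018686-154018705 and chrX:154018623-154018642, and span 83 bases. Each pair lies within 1 exon, so it does not tell spliced RNA from genomic DNA. No m6A was measured in these libraries. The study sequenced m6A-bearing RNA of LPS-treated ARPE-19 cells separately. It took its qPCR genes, TLR4 and IRAK1 included, from those with lower m6A after METTL3 silencing. The letters GGACT, a form of the m6A motif, occurred 4 times in the IL1B transcript (2.45 per kilobase). They occurred 3 times in TLR4-201 (0.552 per kilobase) and 3 times in IRAK1-203 (0.818 per kilobase). The median was 0.965 per kilobase over 6725 listed genes. The count of letters says nothing of whether a site was methylated, and its relation to the directions of the 3 genes was not tested.

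The labelled cell type was checked against marker lists. Of 15 RPE markers 7 were listed, 4 higher and 3 lower. Their summed scaled count was 18864 to 20134 in the control libraries and 30158 to 33478 in the sh-METTL3 libraries, most of it from the keratins KRT8 and KRT18, which other epithelia also express. The defining RPE genes RPE65 and RLBP1 were not listed and not analysed here, and BEST1 was low, with at most 87.9 scaled counts in any library. For monocytes, macrophages and microglia, which express TLR4 and IL1B strongly, 2 of 10 markers were listed. ITGAM fell from a mean of 85.0 to 9.85 (log2 fold change -3.07), and CSF1R rose from 79.9 to 159 (log2 fold change 0.98). These opposite changes nearly cancel in the sum, which was 145 to 185 in the control and 154 to 187 in the sh-METTL3 libraries. No endothelial marker of 6 was listed. Of 8 fibroblast and mesenchymal markers 4 were listed and all 4 were lower, with a sum of 11364 to 13232 in the control and 4730 to 5383 in the sh-METTL3 libraries. This list moved in the direction of TLR4 and IL1B, as did ITGAM but not CSF1R. The part of these markers in the change of TLR4 and IL1B was not tested.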

How the data were processed

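From total RNA of ARPE-19 cells the study sequenced mRNA in 6 libraries, 3 sh-Control and 3 sh-METTL3, and groups were taken from the sample labels. HISAT2 2.0.5 and genome build hg38 are named in the submitters' processing notes. The methods of the study name Cufflinks with RefSeq mRNAs, but the rows of the table are Ensembl genes whose start and end equal those of GENCODE release 29. The read counter and strandedness are not given in the sources used here. Per library, the authors deposited a signal, which is the read count of a gene over 1 size factor. Multiplied back, 100% of the values were whole reads within 0.05 reads. Group means, log2 fold changes, p-values and adjusted p-values deposited by the authors were not used as results. Their p-values served to find that no listed gene exceeds an adjusted p of 0.05 and that 22977 genes had been tested, of which 33.8% are listed. In 13 rows a symbol turned into a date was replaced from the reference gene names.

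log2(scaled count + 1) of all 7758 genes was fitted with limma 3.58.1 (R 4.3.3), using an intensity trend and no covariates. Adjustment of two-sided p-values was by Benjamini-Hochberg over 22977 tests, each unlisted gene counted as a p of 1, at a threshold of 0.05. On this scale the fold of low genes is understated. Ratios within a library were compared by a two-sided exact permutation test over libraries. Alternatives were a pseudocount of 0.1, no intensity trend, adjustment over listed genes alone, genes with a mean of at least 50, edgeR 4.0.16 with 4 scalings, DESeq2 1.42.0 and limma-voom on the recovered reads, a replicate block, and leaving out each library. The genes named are TLR4, IRAK1 and IL1B, METTL3, listed genes of the role lists, listed genes within 500 kb, the 5 listed protein-coding genes with a mean of at least 50 most like each of the 3, and listed cell type markers. These genes, lists and tests were chosen with earlier results of these data known. The fits were tested on simulated data. Promoters are from RefSeq, transcripts from GENCODE, and primers from the study. Library depth is unknown, because the table holds part of the genes, and the number of libraries limits the precision.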

Additional observations from a re-analysis of the deposited data

How the results depend on the processing

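Every listed gene had passed the authors' test on the same libraries, which bounds what these alternatives can show. TLR4, IRAK1 and IL1B kept their direction and their call in all 17. When each library was left out in turn, the log2 fold change ran from -2.32 to -2.17 for TLR4, from 0.52 to 0.62 for IRAK1, from -2.30 to -1.83 for IL1B and from -0.38 to -0.18 for METTL3, which did not pass in the 3 fits without a control library. METTL3 also did not pass without the intensity trend (-0.30, adjusted p 0.12 by limma) or with RLE (-0.17, adjusted p 0.261) or TMM factors (-0.25, adjusted p 0.0573) in edgeR, and the cause was not tested. Called pathway genes numbered 58 to 70, of 70 fitted except in the filter at a mean of 50 (59 of 62), and called listed genes 6541 to 7747 of 7758, or 6274 of 6532 with that filter. RLE factors gave 3703 higher and 2871 lower genes, 56.3% higher against 47.6% as reported. With the replicate number as a block the log2 fold changes were the same, with adjusted p-values of 1.31e-06 for TLR4, 3.95e-05 for IRAK1, 5.37e-06 for IL1B and 0.0178 for METTL3 by limma, and 7481 genes were called. Deviations of libraries with the same number had correlations of 0.0036, 0.019 and -0.015. Libraries thus share only a number, and the block changed none of these calls. When a library was left out, log2 differences of the ratios ran from 2.76 to 2.89 for IRAK1 to TLR4 and from 2.44 to 2.86 for IRAK1 to IL1B. That of IL1B to TLR4, 0.12 as reported, was 0.01 without sh-METTL3 replicate 1, 0.03 without sh-METTL3 replicate 2, 0.05 without sh-Control replicate 3, 0.19 without sh-Control replicate 2 and 0.33 without sh-METTL3 replicate 3.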
